A study of Drosophila melanogaster with 12 samples.

Results

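Antimicrobial peptides and the genes of the Toll and Imd immune pathways were followed in fruit flies (Drosophila melanogaster) with a knockdown of Sps2, which encodes selenophosphate synthetase 2, and in wild-type flies. The list named 45 genes, and a gene counted as measured where a probe set carries its symbol as the only gene symbol in the platform annotation. That held for 29 of the 45 genes, on 32 of the 18769 probe sets of the array that are not controls. The 29 were 9 of 20 effectors, 8 of 13 recognition proteins and 12 of 12 signalling genes. The effectors AttA, AttB, AttC, CecA1, CecA2, CecC, Dro, DptA, BomS1, BomS3 and BomBc1 and the recognition genes PGRP-SA, PGRP-SC1a, PGRP-SD, PGRP-LC and GNBP1 had no such probe set and were not analysed here.

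Each of 4 groups was measured on 3 Affymetrix arrays labelled as biological replicates 1 to 3. They were adult flies with the Sps2 knockdown, adult wild-type flies, larvae with the knockdown and wild-type larvae, fed on cornmeal and yeast, and the series title puts the comparison of knockdown with wild type as its question. Neither the labels nor the series text say how the knockdown was made; whether the wild-type animals carried a driver or transgene, the sex and age of the animals, the larval instar and the body part taken for RNA are likewise not given in these sources. The labels do not say whether the replicates came from separate crosses or vials, so the p-values measure the spread between these arrays.

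Flies defend themselves with innate immunity alone. In the Toll pathway, proteins in the hemolymph that bind fungal glucan or bacterial peptidoglycan start a protease cascade that cleaves Spätzle (spz), the ligand of the receptor Toll (Tl); the adaptors and kinase encoded by Myd88, tub and pll then remove Cactus (cact), the inhibitor that holds the NF-kappaB factors dl and Dif in the cytoplasm. In the Imd pathway, peptidoglycan recognition proteins signal through imd and the IKK subunit Kenny (key) to Relish (Rel), a further NF-kappaB factor, and pirk and the amidase PGRP-LB restrain it. Both pathways switch on small secreted effectors in the fat body, the fly counterpart of liver and adipose tissue, and in epithelia.

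Levels are given as linear signal, the value of the array scanner's software after scaling of each array, and differences as log2 changes with the standard error (SE) of limma, a linear model over all probe sets with n = 3 arrays per group. A difference was called where its adjusted p (Benjamini-Hochberg, over 12827 tested probe sets) was under 0.05. Testing required a signal in the upper part of the array, above its 40th percentile, on 3 or more of the 12 arrays. The 29 genes all passed this filter, although edin passed through 4 larval arrays. A fold is written as "at least" where the lower group was, on average, under that percentile (35.2 to 40.2 in signal), which then took the place of its mean.

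The targeted gene checked the labels. Sps2 read 137.6, 137.9 and 113.4 in adult knockdown against 902.4, 878.4 and 919.6 in adult wild type, and 188.3, 138.0 and 148.6 in larval knockdown against 787.0, 717.7 and 830.4 in larval wild type. One larval wild-type array stood apart. Lsp2, a storage protein of the fat body, read 881.4 on replicate 1 and 17317.8 and 16597.4 on replicates 2 and 3 of that group, and 77.6 to 225.0 on the larval knockdown arrays; Fbp2, another fat body protein, read 319.4 against 8381.7 and 10719.6, and 16.5 to 43.5 in larval knockdown. Larval results that rest on replicate 1 are given below with and without it. The control probe sets read 2.44 ± 0.07 and 2.42 ± 0.07 (SD, n = 3) log2 units higher at the 3′ end than at the 5′ end in adult knockdown and wild type, and 3.70 ± 0.06 and 3.51 ± 0.11 in larvae. In bulk RNA such as this, fewer cells of a type and less RNA per cell cannot be told apart.

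In adults, several signalling genes, most of them of the Toll pathway, were higher with the knockdown, while no effector passed the test over the 12 arrays. With the adult arrays alone 3 of 9 effectors were called, all lower, beside 25.8% of all tested probe sets called lower. For 1 of the signalling genes, cact, a second probe set ran the opposite way. Of the 29 genes, 8 rose and 1 fell, against a background of 29.0% of all tested probe sets called (13.6% higher and 15.4% lower). The 8 were spz, Myd88, tub, pll, cact, Dif, key and PGRP-SB1, with folds of 1.16 to 2.24, and the 1 was PGRP-LB, at 1.62-fold lower. By role, 7 of 12 signalling genes rose and 0 fell, 1 of 8 recognition genes rose and 1 fell, and 0 of 9 effectors were called by limma, 1 of them (BomS2) having an unadjusted p under 0.05. The median log2 change was 0.25 over the signalling genes, -0.21 over the recognition genes and -0.23 over the effectors, beside -0.04 over all tested probe sets. With each array centred on its median the overall median moved to 0.24, and all calls split into 4666 higher and 779 lower in place of 1742 and 1975; the member calls were then 12 higher and 0 lower. The adult calls of spz, Myd88 and tub stood under every alternative run, and those of pll, key, Dif and PGRP-SB1 were lost under 5 to 12 of them. The adult count of 9 was 4 without replicate 1 of adult wild type, and 5 without replicate 3 of adult wild type or without replicate 2 or 3 of adult knockdown. Adult calls over all tested probe sets, 3717 with every array, also fell. In the same order they numbered 2893, 2543, 2484 and 3234.

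In larvae, the effectors were the group with the widest changes, and also the group with the widest spread between replicates. Their median SD in larval wild type was 1.07 log2 units, against 0.11 for the signalling genes. Some of these changes involve values below the 40th percentile. With low values raised to it, the larval change of BomBc2 was -0.27 (limma adjusted p = 0.191). Of the 29 genes, 5 rose and 5 fell, against a background of 25.6% called (15.0% higher and 10.7% lower). BomS2, BomBc2 and edin fell and Drs rose among the 9 effectors, PGRP-LA and GNBP3 rose and PGRP-LE fell among the 8 recognition genes, and Myd88 and Rel rose and cact fell among the 12 signalling genes. The median log2 change was -0.87 over the effectors, 0.26 over the recognition genes and 0.06 over the signalling genes, beside 0.04 over all tested probe sets; centring on array medians gave -0.05 and split all calls into 1189 higher and 1690 lower in place of 1918 and 1369, and the member calls into 3 higher and 6 lower. Without replicate 1 of larval wild type, 4 rose and 6 fell: Def and PGRP-SC2 joined the falls, and Rel and cact were lost. Larval calls of BomS2, PGRP-LA, PGRP-LE, GNBP3 and Myd88 stood under every alternative run.

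**Figure D1:**
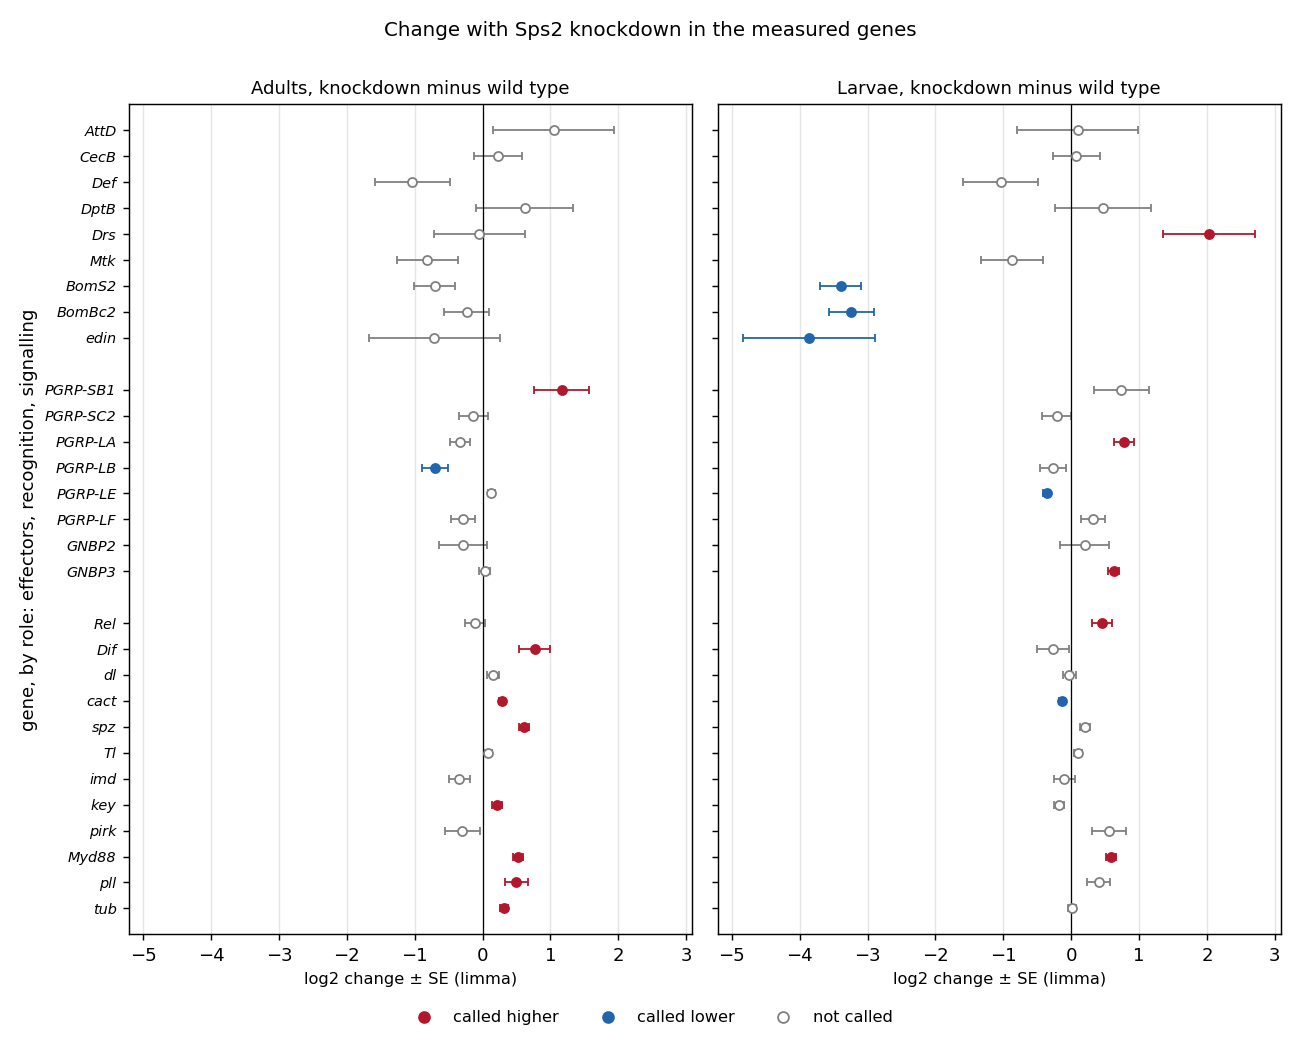
Log2 change with the Sps2 knockdown in adults (left) and larvae (right) for the 29 measured genes by role, as points with limma's SE (n = 3 arrays per group). Filled red and blue points were called higher and lower. In adults 7 signalling genes rose on the probe sets drawn, among them cact, whose second probe set fell. No effector was called in adults in this fit, while 3 were called lower with the adult arrays alone. In larvae BomS2, BomBc2 and edin lay below -3. With low values raised to the 40th percentile, BomBc2 in larvae was -0.27 and not called.

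In larvae the Bomanins BomS2 and BomBc2 gave the largest separation from the replicate spread among the effectors. In adults BomS2 alone of the 9 effectors had an unadjusted limma p under 0.05, and no effector was called over the 12 arrays. Bomanins are short secreted peptides that act downstream of Toll. BomS2 read 31.9, 16.9 and 56.8 on the larval knockdown arrays and 278.8, 363.3 and 352.3 in larval wild type. Every knockdown array lay far below every wild-type array, and only the highest of them reached the 40th percentile. The fall was at least 8.64-fold (log2 change -3.40, SE 0.31, limma adjusted p = 8.65e-06), and without replicate 1 of larval wild type it was -3.52. In adults BomS2 read 2617.0, 2463.8 and 2642.8 with the knockdown and 4176.3, 4104.6 and 4331.0 without it. These groups did not overlap either, but the log2 change of -0.71 was not called when all 12 arrays shared 1 estimate of spread (SE 0.31, adjusted p = 0.104), whereas with the 6 adult arrays alone its SE was 0.04 and its adjusted p 3.95e-06.

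BomBc2 read 2.8, 4.9 and 4.5 in larval knockdown and 19.4, 58.1 and 46.6 in larval wild type. Only replicates 2 and 3 of the wild type reached the 40th percentile of their arrays, so no fold is given. Its log2 change of -3.24 was called (SE 0.33, adjusted p = 2.34e-05), and with low values raised to the percentile it became -0.27 (adjusted p = 0.191). Adult BomBc2 read 2530.2, 2267.3 and 2530.9 against 2672.4, 2970.1 and 2977.3. The adult groups stood close together without overlap, with a log2 change of -0.23 that was not called (SE 0.33, adjusted p = 0.633).

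Drs encodes drosomycin, the antifungal peptide long used as the readout of Toll activity. It read 1956.0, 1692.9 and 1642.6 on the larval knockdown arrays and 87.2, 812.7 and 1120.7 on the larval wild-type arrays. All knockdown values were above all wild-type values, and replicate 1 of the wild type was an order below its group. The log2 change was 2.03 (4.09-fold, SE 0.67, adjusted p = 0.0439); without that replicate it was 0.88 (adjusted p = 0.000694), and the call was lost under 14 of 22 alternatives, with adjusted p up to 0.107, among them leaving out any adult or any larval knockdown array. In adults Drs was 8131.2, 6357.6 and 7316.9 with the knockdown and 7546.4, 7139.5 and 7757.6 in wild type. These overlapped, and the log2 change was -0.05 (SE 0.67, adjusted p = 0.964).

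The gene edin encodes a short secreted peptide induced by infection. Its larval wild-type values were 48.5, 414.8 and 178.3, and its larval knockdown values 5.9, 4.6 and 43.3. Replicate 3 of the knockdown came close to replicate 1 of the wild type without reaching it. The fall was at least 4.02-fold (log2 change -3.86, SE 0.97, adjusted p = 0.0113), and it was not called without replicate 2 of larval wild type (-3.14, adjusted p = 0.0572). Leaving out 1 array moved it between that value and -4.88, the latter without replicate 3 of larval knockdown. It passed the filter on low values through the 3 larval wild-type arrays and replicate 3 of larval knockdown, so the filter favoured a larval difference. On the 6 adult arrays edin stayed below the 40th percentile and gave no fold.

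Def encodes defensin, active against Gram-positive bacteria. Adult knockdown arrays read 759.6, 527.9 and 786.2, and adult wild-type arrays 1597.4, 1436.7 and 1184.7. The knockdown arrays were all lower, by a log2 change of -1.04 that was not called over the 12 arrays (2.05-fold, SE 0.55, adjusted p = 0.182) and was called with the adult arrays alone (adjusted p = 0.000703). In larvae Def lay between 5.2 and 41.2, below the 40th percentile of 5 of the 6 arrays. Its larval log2 change of -1.04 was not called (adjusted p = 0.197), and without replicate 1 of larval wild type it was -1.91 (adjusted p = 0.000218), between means that both lay near or below the percentile. Without replicate 2 of larval wild type it was -0.42 (adjusted p = 0.596), and with low values raised to the percentile 0.040 (adjusted p = 0.875), so the larval change of Def has no settled size or direction.

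Mtk encodes metchnikowin, an antifungal and antibacterial peptide. It read 289.1, 263.6 and 509.9 in adult knockdown and 960.2, 455.4 and 485.7 in adult wild type, and 169.6, 188.2 and 174.9 in larval knockdown against 204.5, 765.9 and 217.7 in larval wild type. The larval groups did not overlap and the adult groups did. Log2 changes of -0.82 in adults (SE 0.45, adjusted p = 0.198) and -0.87 in larvae (SE 0.45, adjusted p = 0.186) were not called.

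DptB encodes a diptericin, the peptide family most closely tied to Imd signalling. Its adult values were 225.7, 179.9 and 233.6 with the knockdown and 464.6, 88.0 and 64.0 in wild type, and its larval values 1090.0, 514.0 and 1544.3 with the knockdown and 525.9, 1766.6 and 350.3 in wild type. At both stages 1 wild-type array lay above all knockdown arrays while the others lay below the lowest of them or, for 1 larval array, just above it. Neither change was called (0.62, adjusted p = 0.553; 0.47, adjusted p = 0.680). AttD, an attacin, ranged from 19.4 to 395.1 within adult knockdown alone. CecB, a cecropin, ranged from 37.9 to 90.6 over the 12 arrays, and neither AttD nor CecB was called in any comparison.

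Effectors varied between replicates more than the signalling genes did. The median SD over the 9 effectors was 1.07 log2 units in larval wild type, 0.43 in larval knockdown, 0.20 in adult knockdown and 0.21 in adult wild type, while over the 12 signalling genes it was 0.05 to 0.11 in every group. In 2 of the 4 groups the same array was highest for most effectors. Replicate 2 of larval wild type had the highest value of its group for 8 of 9 effectors and replicate 1 the lowest for 7 of 9, and in adult knockdown replicate 3 was highest for 8 of 9 and replicate 2 lowest for 7 of 9. In adult wild type and larval knockdown no replicate was highest for more than 4 of 9. The part that differences between arrays play in the larval changes was not tested.

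**Figure D2:**
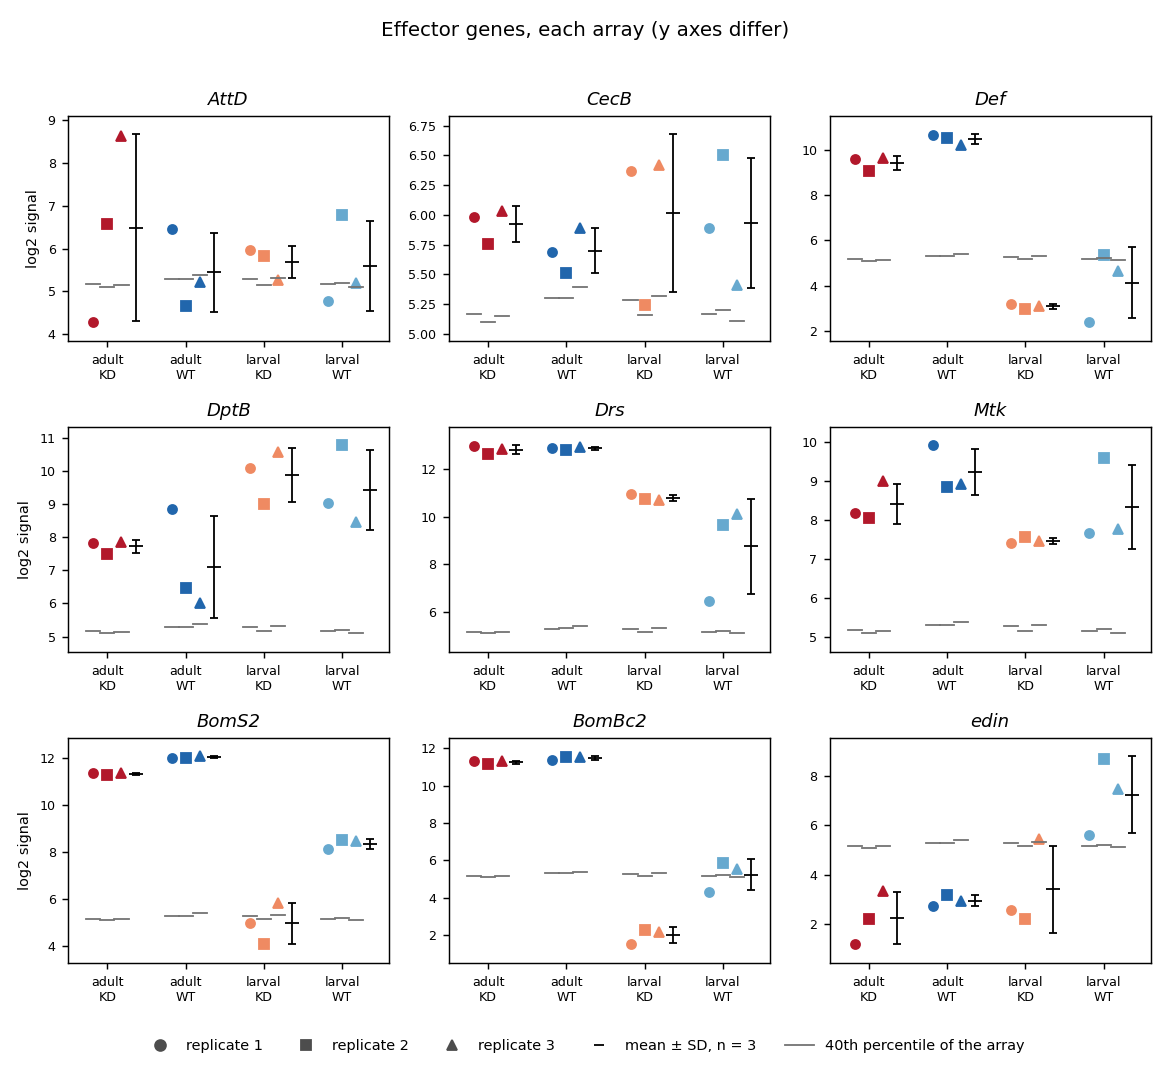
Log2 signal of the 9 measured effectors on each array, with one symbol per replicate, the mean ± SD (n = 3) in black and the 40th percentile of each array as a grey line. BomS2 and BomBc2 in larval knockdown lie at or below the grey lines on 5 of 6 readings, and replicate 2 of larval wild type is the highest of its group for 8 of the 9 genes.

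Among the recognition proteins, larvae gave 3 changes that stood under every alternative. GNBP3, a hemolymph protein that senses fungal beta-glucan upstream of Toll, read 951.2, 985.7 and 965.7 in larval knockdown and 613.0, 608.0 and 662.5 in larval wild type. The values were tight in both groups and far apart, a rise of 1.54-fold (log2 change 0.62, SE 0.08, adjusted p = 0.000176). In adults GNBP3 overlapped between genotypes at 289.3 to 342.6 (0.03, adjusted p = 0.815).

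PGRP-LE, an intracellular and secreted sensor of the Imd pathway, moved the opposite way in larvae. It read 742.5, 795.3 and 816.3 with the knockdown and 990.3, 1029.7 and 998.8 without it. No knockdown array reached a wild-type array, and the fall was 1.28-fold (log2 change -0.36, SE 0.05, adjusted p = 0.000482). The adult arrays read 1188.2, 1122.3 and 1131.2 against 1031.7, 1068.0 and 1046.0, and these groups were separate in the other direction without a call (0.13, SE 0.05, adjusted p = 0.0965).

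PGRP-LA, a membrane-associated member of the family that has been placed in Imd signalling in epithelia, read 196.2, 165.6 and 182.1 in larval knockdown and 100.7, 99.7 and 116.7 in larval wild type. All 3 knockdown arrays were higher, and the rise was 1.72-fold (log2 change 0.78, SE 0.15, adjusted p = 0.00213). In adults it read 110.6, 105.9 and 138.7 with the knockdown against 141.7, 157.8 and 145.5, lower on every array and not called (-0.33, adjusted p = 0.109). On the Release 6 plus ISO1 MT assembly PGRP-LA, PGRP-LC and PGRP-LF are neighbours. PGRP-LF, an inhibitory receptor of the same cluster, was not called at either stage (-0.29 in adults, adjusted p = 0.246; 0.33 in larvae, adjusted p = 0.204).

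PGRP-SB1 encodes a secreted amidase that is itself induced through Imd. Adult knockdown arrays read 785.4, 977.2 and 1459.7, and adult wild-type arrays 558.4, 389.4 and 457.6. The groups were separate, with a rise of 2.24-fold (log2 change 1.16, SE 0.40, adjusted p = 0.0464). That call was lost under 10 of 22 alternatives, with adjusted p up to 0.150, among them those that left out replicate 2 or 3 of adult knockdown, any adult wild-type array, or replicate 1 of either larval group. In larvae the arrays overlapped at 405.2 to 1314.9 against 287.8 to 701.3 (0.74, adjusted p = 0.206).

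PGRP-LB, the amidase that breaks down peptidoglycan and dampens Imd signalling, was the 1 member lower in adults. It read 104.3, 141.3 and 143.4 with the knockdown and 225.4, 203.0 and 197.8 without it. The groups were separate (log2 change -0.70, SE 0.19, adjusted p = 0.0151). Centred on array medians the change was -0.42 and no longer called (adjusted p = 0.120), and it was also lost without replicate 1 of adult knockdown (-0.55, adjusted p = 0.0649) or of adult wild type (-0.64, adjusted p = 0.0541). PGRP-SC2, a further amidase, and GNBP2, a relative of GNBP3, were not called in either knockdown comparison; PGRP-SC2 in larvae (-0.21, adjusted p = 0.509) became -0.55 (adjusted p = 0.00212) without replicate 1 of larval wild type and 0.038 (adjusted p = 0.906) without replicate 2.

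**Figure D3:**
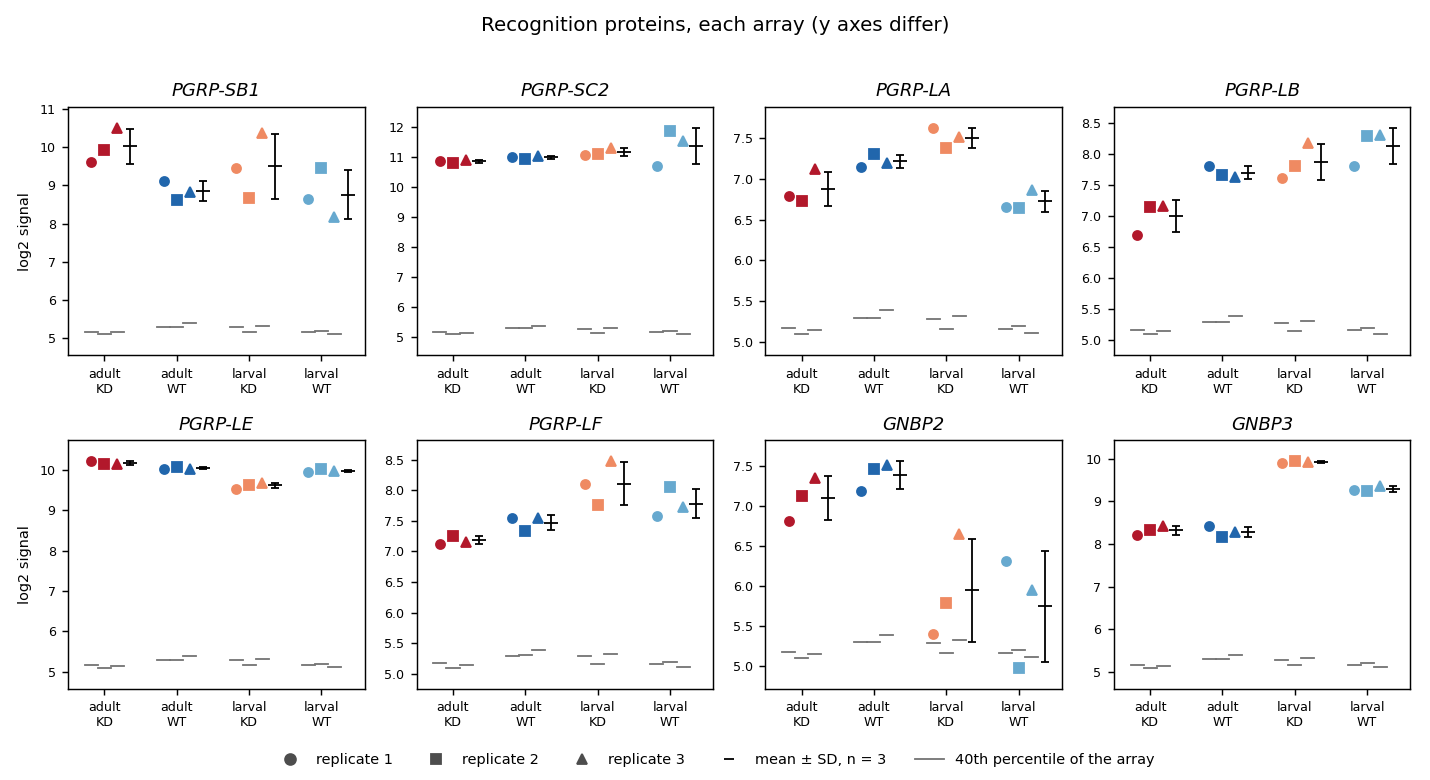
Log2 signal of the 8 measured recognition proteins on each array, with one symbol per replicate, the mean ± SD (n = 3) in black and the 40th percentile of each array as a grey line. Larval knockdown lies above larval wild type on all 3 arrays for GNBP3 and PGRP-LA and below it for PGRP-LE, and adult knockdown lies below adult wild type for PGRP-LB.

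Of the 9 genes called in adults, beside 29.0% of all tested probe sets, 6 were the Toll ligand and genes that act below the receptor. Most signalling genes of the list belong to this pathway. Of the 6, only spz, Myd88 and tub kept their adult call under every alternative run, and cact had a second probe set called the opposite way. Among genes outside the member list, 28.6% of the other Toll pathway genes were called in adults in either direction, and 57.1% of the other Imd pathway genes. The ligand gene spz read 1353.7, 1329.0 and 1354.8 in adult knockdown and 915.4, 913.8 and 817.1 in adult wild type. The replicates of a group lay close together and the genotypes far apart, a rise of 1.53-fold (log2 change 0.61, SE 0.07, adjusted p = 5.92e-05). Larval spz read 742.6, 780.2 and 714.4 against 596.6, 656.3 and 692.4, separate but just short of a call (0.20, SE 0.07, adjusted p = 0.0531). The receptor gene Tl was not called at either stage (0.08 in adults, adjusted p = 0.362; 0.10 in larvae, adjusted p = 0.253), but with centring on array medians its adult change was 0.36 and called (adjusted p = 0.00284).

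Myd88, the adaptor that binds the activated receptor, was the 1 member to rise at both stages. It read 559.6, 589.7 and 561.6 against 414.8, 386.6 and 391.9 in adults, and 474.6, 487.2 and 452.3 against 294.1, 338.1 and 309.3 in larvae. At both stages every knockdown array was above every wild-type array. The rises were 1.43-fold in adults (log2 change 0.52, SE 0.08, adjusted p = 0.000375) and of similar size in larvae (0.59, SE 0.08, adjusted p = 0.000153).

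The adaptor tub read 1618.7, 1532.8 and 1413.9 in adult knockdown and 1223.4, 1231.3 and 1196.8 in adult wild type, 1.25-fold higher (log2 change 0.32, SE 0.06, adjusted p = 0.00181). Its larval arrays lay at 558.2 to 578.5 and 549.8 to 573.7 and overlapped (0.01, adjusted p = 0.900). The kinase gene pll read 656.8, 556.5 and 605.2 against 458.1, 418.0 and 414.0 in adults. All knockdown arrays were higher, by 1.41-fold (0.49, SE 0.17, adjusted p = 0.0467), a call lost under 12 of 22 alternatives, among them leaving out any adult array, any larval wild-type array or replicate 2 of larval knockdown. In larvae pll read 199.1, 173.9 and 113.7 against 119.8, 125.1 and 112.5, where replicate 3 of the knockdown fell among the wild-type values (0.41, adjusted p = 0.102).

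Cactus, the inhibitor of the pathway, gave an uncertain direction. The probe set with the higher signal read 5273.2, 5181.2 and 5051.8 in adult knockdown and 4288.8, 4108.9 and 4271.6 in adult wild type, 1.22-fold higher (log2 change 0.29, SE 0.04, adjusted p = 0.000385), and in larvae 1560.6, 1479.9 and 1444.6 against 1662.4, 1651.9 and 1597.9, 1.10-fold lower (-0.13, SE 0.04, adjusted p = 0.0418). A second cact probe set read 248.6, 236.4 and 283.4 against 308.5, 400.4 and 359.3 in adults, lower and called in the opposite direction (-0.47, SE 0.16, adjusted p = 0.0474), and was not called in larvae (0.05, adjusted p = 0.856). Averaged over both, the adult change was -0.09 (adjusted p = 0.482), so no direction is given for the gene; its larval call was also lost on leaving out any array but replicate 1 of larval knockdown and replicate 3 of larval wild type.

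The NF-kappaB factors differed among themselves. Dif, the factor that acts in the adult immune response to Toll, read 81.6, 102.9 and 104.3 in adult knockdown and 61.6, 62.0 and 46.8 in adult wild type, 1.70-fold higher (log2 change 0.76, SE 0.24, adjusted p = 0.0289), and lost that call under 5 of 21 alternatives, among them leaving out replicate 2 or 3 of adult knockdown or replicate 1 or 3 of adult wild type. Its larval values, 36.0 to 49.5 against 43.5 to 57.0, were near the 40th percentile and were not called. The factor dl was not called on its stronger probe set (0.15 in adults, adjusted p = 0.231; -0.03 in larvae, adjusted p = 0.866), although centring on array medians gave an adult call at 0.43 (adjusted p = 0.00228). A second dl probe set rose in larvae, from 650.6, 534.7 and 482.3 in wild type to 823.3, 736.0 and 760.2 (0.49, SE 0.14, adjusted p = 0.0240).

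In the Imd branch, key, the regulatory subunit of the IKK complex, read 1302.0, 1341.7 and 1380.4 in adult knockdown and 1170.1, 1169.6 and 1126.2 in adult wild type. These were separate, with a rise of 1.16-fold (log2 change 0.22, SE 0.07, adjusted p = 0.0452) that was lost under 9 of 22 alternatives, among them leaving out any adult array or replicate 3 of larval knockdown. Rel, the NF-kappaB factor of the branch, read 1556.6, 1072.1 and 1535.3 in larval knockdown and 799.5, 1066.7 and 1180.8 in larval wild type. Replicate 2 of the knockdown fell within the wild-type range; the log2 change of 0.45 was called (SE 0.15, adjusted p = 0.0424) and lost under 16 of 22 alternatives, at 0.29 (adjusted p = 0.146) without replicate 1 of larval wild type. Leaving out any adult array, replicate 1 or 3 of larval knockdown or replicate 2 of larval wild type also ended that call. The adaptor gene imd (-0.34 in adults, adjusted p = 0.112; -0.10 in larvae, adjusted p = 0.674) and its inhibitor pirk (-0.30, adjusted p = 0.413; 0.56, adjusted p = 0.137) were not called.

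**Figure D4:**
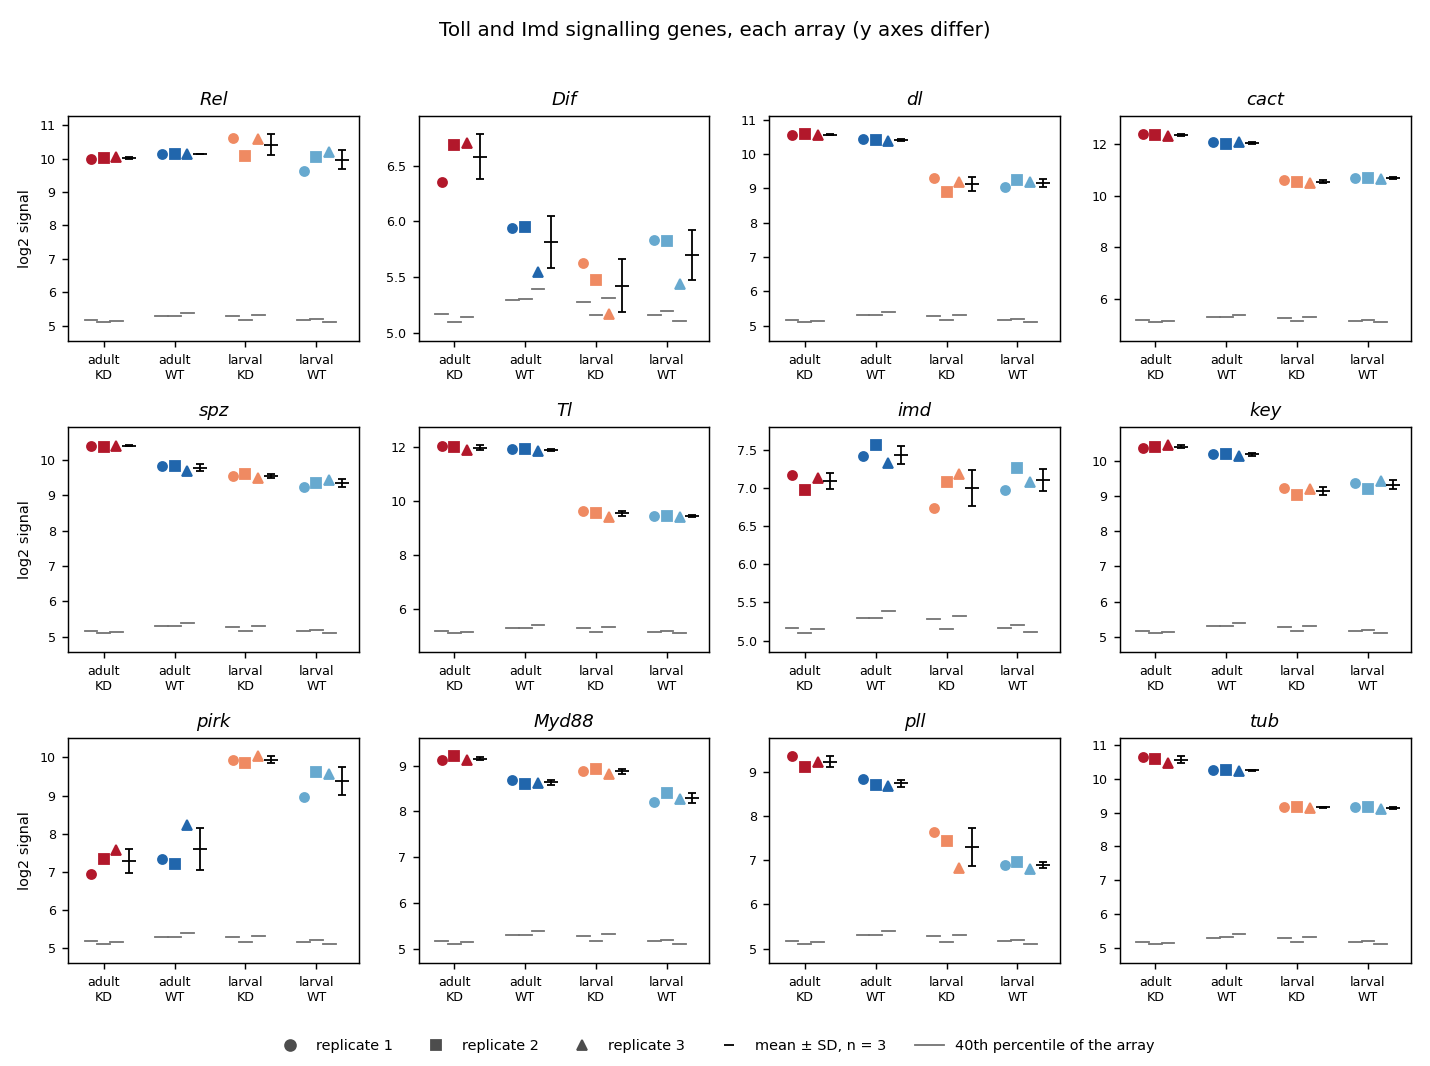
Log2 signal of the 12 signalling genes on each array, with one symbol per replicate, the mean ± SD (n = 3) in black and the 40th percentile of each array as a grey line. In adults the knockdown arrays lie above the wild-type arrays for spz, Myd88, tub, pll, Dif, key and cact, and in larvae all 3 do for Myd88 and, more narrowly, for spz.

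The adult count depends on how the spread is estimated. With the 6 adult arrays alone, where 48.3% of all tested probe sets were called (22.4% higher and 25.8% lower), 15 of the 29 genes were called, 9 higher and 6 lower. The additional genes were the effectors Def, BomS2 and BomBc2, PGRP-SC2 and imd, all lower, and dl, which was higher. With the 6 larval arrays alone, where 17.4% of all tested probe sets were called (9.62% higher and 7.80% lower), 4 rose and 4 fell. The rises then included pirk (limma adjusted p = 0.0431), while Drs, Rel and cact lost their calls. Groups did not overlap for 19 of the 29 genes in adults and 12 in larvae, beside 58.2% and 35.4% of all tested probe sets.

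Whether the knockdown effect differed between stages was tested as the adult effect minus the larval effect. It was called for 10 of the 29 genes, 8 positive and 2 negative, beside 20.8% of all tested probe sets (7.87% positive and 12.9% negative). The differences for BomS2 (2.69, SE 0.43, adjusted p = 0.00159), PGRP-LA (-1.11, SE 0.21, adjusted p = 0.00365), PGRP-LE (0.49, SE 0.08, adjusted p = 0.00143) and spz (0.41, SE 0.10, adjusted p = 0.0139) held under every alternative run. BomBc2 (3.00, adjusted p = 0.00130) went to 0.04 (adjusted p = 0.912) once low values were raised to the 40th percentile, and GNBP3 (-0.59, adjusted p = 0.00487) to -0.23 (adjusted p = 0.245) with centring on array medians. The others called were cact, Dif, key and tub; leaving out 1 array ended the calls of Dif (any array but replicate 1 of larval knockdown and replicate 3 of larval wild type), tub (replicate 1 or 2 of adult knockdown or replicate 3 of adult wild type) and key (replicate 3 of adult wild type). With centring on array medians all calls split into 3953 positive and 716 negative in place of 1009 and 1656, and the member calls into 10 and 1. For Myd88 the difference was -0.07 (SE 0.11, adjusted p = 0.696), and for Drs, called only in larvae, it was -2.08 and not called (SE 0.95, adjusted p = 0.144). That difference was called at -0.93 without replicate 1 of larval wild type (adjusted p = 0.00489) and at -2.77 without replicate 3 (adjusted p = 0.0437).

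Adults and larvae differed in 65.5% of the members in wild type and 75.9% in the knockdown, both below the shares of all tested probe sets. Between wild-type adults and larvae 14 of the 29 genes were higher in adults and 5 lower, beside 81.7% of all tested probe sets called (53.3% higher and 28.4% lower), and between knockdown adults and larvae 15 were higher and 7 lower, beside 81.3% (50.3% and 30.9%). The deposited scaling put the median of all tested probe sets 0.51 higher in wild-type adults than larvae and 0.43 higher in knockdown, and centring on the median of the tested probe sets put it at -0.29 and -0.26. Under that centring all wild-type calls split into 4277 higher and 6104 lower in place of 6841 and 3645, and the member calls into 9 higher and 14 lower; the knockdown calls split into 4390 and 5928 in place of 6458 and 3964, with 9 members higher and 10 lower. Small stage differences of members therefore have no settled direction, and 12 of the 29 genes kept their wild-type call under every alternative run in which they were tested.

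Those 12 were higher in wild-type adults for Def (at least 39.1-fold, log2 change 6.32, SE 0.55), BomBc2 (76.7-fold, 6.26, SE 0.33), Drs (17.4-fold, 4.12, SE 0.67), BomS2 (12.8-fold, 3.67, SE 0.31), Tl (5.50-fold), pll (3.61-fold), cact (2.58-fold) and tub (2.16-fold). They were lower in adults for edin (at least 3.81-fold), which passed the filter through larval arrays alone and so had to differ, and for DptB (4.99-fold), the Imd inhibitor pirk (3.46-fold) and GNBP3 (2.01-fold). Without replicate 1 of larval wild type the log2 changes were 2.97 for Drs, 5.44 for Def and -5.15 for edin (-4.32 with it). Other arrays also moved these values by over 1.5 times: without replicate 2 of larval wild type Def was 6.94, edin -3.60 and DptB -1.64, without replicate 3 Drs was 4.81, and without replicate 1 of adult wild type DptB was -3.20, beside -2.32 with all arrays. The second cact probe set ran the opposite way, 1.88-fold lower in adults. In the knockdown the adult to larva difference of BomS2 was at least 67.5-fold, and that of pirk 6.26-fold in the same direction as in wild type.

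The wider Bomanin family, a grouping chosen after these values were seen, did not move as 1 group. BomS4 was lower at both stages, as BomS2 was, but over the 12 arrays its adult change was called and that of BomS2 was not. BomS4 read 1203.7, 1273.7 and 1159.9 in adult knockdown against 5126.3, 5039.7 and 5292.3, and 24.2, 30.7 and 31.0 in larval knockdown against 159.3, 266.1 and 279.7. It was far lower on every knockdown array at both stages, 4.25-fold in adults (log2 change -2.09, SE 0.18, adjusted p = 4.91e-06) and at least 5.98-fold in larvae (-3.00, SE 0.18, adjusted p = 2.93e-07). Of 8 Bomanins measured in adults, none overlapped between genotypes, beside 58.2% of all tested probe sets without overlap: 6 were lower and 2 higher with the knockdown. With the 6 adult arrays alone all 8 were called, beside 48.3% of all tested probe sets, while BomS4 alone was called over the 12 arrays.

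BomS6 read 5193.7, 5206.7 and 5290.1 in adult knockdown against 3202.6, 3507.7 and 3209.1, and BomT2 read 1735.5, 1949.5 and 1785.7 against 958.4, 975.5 and 985.5. These are the 2 that were higher, by log2 changes of 0.66 and 0.90 (adjusted p = 6.65e-06 and 3.85e-06 with the adult arrays alone, 0.531 and 0.298 over the 12). BomS5 read 1229.5, 1100.8 and 1242.4 against 2160.2, 2442.2 and 2568.5 and was lower on every adult knockdown array (adjusted p = 1.18e-05 with the adult arrays alone, 0.137 over the 12). On the Release 6 plus ISO1 MT assembly BomS1, BomS4, BomBc2, BomS2, BomS3, BomT2, BomS5 and BomS6 are consecutive in this order. Of these, BomS1 and BomS3 were not measured, and the measured BomT3 and BomBc3 lie apart on chromosome arm 3R. The adult directions differ between immediate neighbours, as among BomT2, BomS5 and BomS6. In larvae 5 of 8 were called lower, beside 10.7% of all tested probe sets, but BomS5 and BomS6 had both means below the 40th percentile. With the 6 larval arrays alone 3 were called lower, beside 7.80%, and 3 of the 8 did not overlap, beside 35.4%. BomT2 and BomT3 were not called in larvae, and BomBc3 was 0.11 (adjusted p = 0.905).

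**Figure D5:**
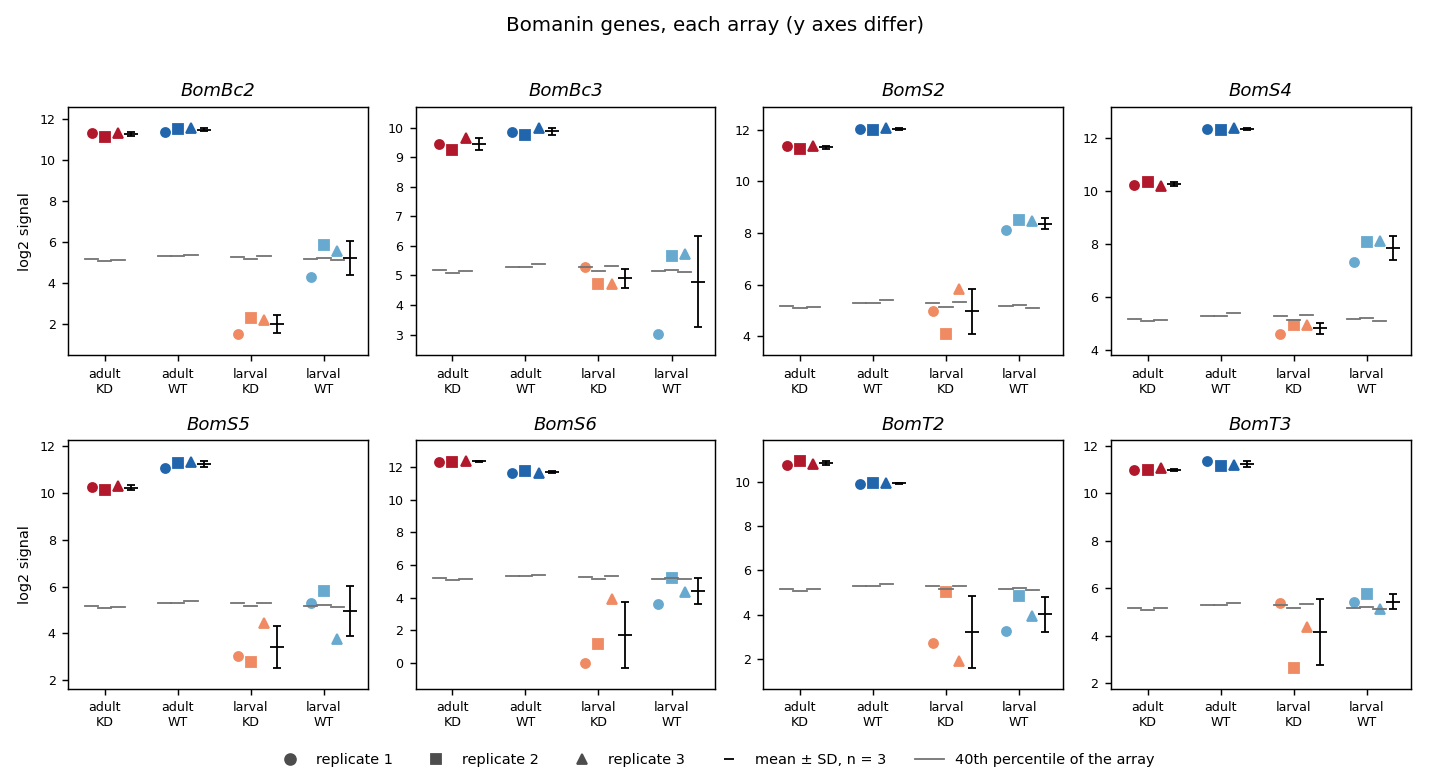
Log2 signal of the 8 measured Bomanin genes on each array, with one symbol per replicate, the mean ± SD (n = 3) in black and the 40th percentile of each array as a grey line. Adult knockdown is lower for 6 genes and higher for BomS6 and BomT2, and in larvae only BomS2 and BomS4 lie above the grey lines on all 3 wild-type arrays while most knockdown values lie below them.

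Other genes of both pathways were read by list, beside the 29.0% of all tested probe sets called in adults and 25.6% in larvae. Among 12 other effectors tested, adults had 0 rises and 3 falls, and larvae 1 rise and 4 falls, or 25.0% and 41.7% of them. This list includes the Bomanins given above other than BomS2 and BomBc2. BomS4 is thus among the adult falls, and BomS4, BomS5 and BomS6 are among the larval falls. Listericin, an antibacterial peptide, fell at both stages, from 1575.7, 1520.8 and 1700.6 to 1196.7, 867.0 and 978.6 in adults (log2 change -0.67, SE 0.20, adjusted p = 0.0241) and from 229.6, 336.2 and 197.1 to 161.3, 111.3 and 109.4 in larvae (-0.98, SE 0.20, adjusted p = 0.00315). Drsl4, a drosomycin-like gene, fell in adults (1.78-fold, -0.83, SE 0.17, adjusted p = 0.00300).

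Among 21 other Toll pathway genes tested, adults had 3 rises and 3 falls, and larvae 2 rises and 1 fall. These are 28.6% and 14.3% of the list, near and below the shares of all tested probe sets. Tollo, a Toll-family receptor, read 1009.1, 1128.9 and 1040.5 in adult knockdown against 280.9, 248.2 and 311.1, a 3.79-fold rise (SE 0.10 around a log2 change of 1.92, adjusted p = 5.61e-08), with overlapping larval values (0.09, adjusted p = 0.518). The protease gene Hayan fell in adults (3.00-fold, -1.58, adjusted p = 0.000714), Gprk2, a kinase needed for full Toll signalling, fell at both stages (-0.58, adjusted p = 0.00168; -0.75, adjusted p = 0.000285), and ea, the protease that cleaves Spätzle in the embryo, rose in adults (0.70, adjusted p = 0.00383). SPE, which encodes the Spätzle-processing enzyme of the immune response, and nec, a serpin that restrains the cascade, rose in larvae (0.57, adjusted p = 0.00572; 0.34, adjusted p = 0.0252).

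Among 14 other Imd pathway genes tested, adults had 5 rises and 3 falls, and larvae 1 rise and 2 falls. These are 57.1% and 21.4% of the list, beside 29.0% and 25.6% of all tested probe sets. IKKbeta, the catalytic partner of key, rose in adults (1.46-fold, 0.55, adjusted p = 0.00127) and was not called in larvae (-0.03, adjusted p = 0.836). Diap2, a ubiquitin ligase of the pathway, rose at both stages (0.23, adjusted p = 0.00698; 0.22, adjusted p = 0.0112), and the caspase gene Dredd, whose product cleaves Relish, and ben, which encodes a ubiquitin-conjugating enzyme, fell at both (Dredd -0.40 and -0.25, adjusted p = 0.00285 and 0.0357; ben -0.45 and -0.30, adjusted p = 0.00131 and 0.0153).

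Of 4 Turandot and JAK/STAT genes tested, TotC, a stress-induced humoral factor, rose in adults from 352.3, 346.6 and 273.5 to 1122.9, 1134.7 and 1517.9 (3.87-fold, log2 change 1.95, SE 0.25, adjusted p = 0.000149). In larvae limma called 0 of the 4, and TotC (0.47, adjusted p = 0.209) and TotE (0.59, adjusted p = 0.604) had both means below the 40th percentile.

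Some markers of the tissues that make these proteins also differed between genotypes, beside 29.0% of all tested probe sets called in adults and 25.6% in larvae. The summed signal of the 6 measured of 9 fat body markers ranged from 22524 to 22818 in adult knockdown and from 25160 to 25908 in adult wild type, and from 54691 to 58210 and 55330 to 78650 in larvae. Of 5 fat body markers tested, Lsp2 rose and FASN1 and Lsd-1 fell in adults (2.77, -0.55 and -0.76), and Lsp2 and Fbp2 fell in larvae (-5.60 and -6.78), while Fbp1 reached the 40th percentile on 1 of 12 arrays. The 11 hemocyte markers summed to 21619 to 22574 against 22401 to 23000 in adults and to 55934 to 60547 against 51799 to 54585 in larvae; adults had 2 rises and 3 falls and larvae 3 of each. NimC1 rose at both stages (2.20 and 2.13) and Hml fell at both (-0.93 and -0.43). PPO1 rose and eater and srp fell in adults (0.75, -1.36 and -0.57), and Col4a1 and vkg rose and PPO1 and PPO2 fell in larvae (0.44, 0.58, -1.11 and -1.09). Of 7 midgut markers 3 were called in adults and 2 in larvae, of 9 of the male reproductive tract 2 and 1, of 8 of the female reproductive tract 1 and 2, and of 3 of trachea and cuticle 1 and 0. In adults and larvae the called shares were 60% and 40% for fat body, 45.5% and 54.5% for hemocytes and 42.9% and 28.6% for midgut. They were 22.2% and 11.1% for the male and 12.5% and 25% for the female reproductive tract, below the shares of all tested probe sets. The part of these markers in the changes of the immune genes was not tested.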

How the data were processed

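Total RNA of adult and larval flies was measured on 12 Affymetrix arrays, 3 in each of 4 groups taken from the titles. The authors deposited 1 value per probe set and array, made with MAS5 per the submitters' processing notes (no version or settings are given there). The deposited values are on a log2 scale, as taken from the values: back on a linear scale, each array's trimmed mean is 500.01 to 500.02. For arrays, their number limits the precision.

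Of 18952 probe sets, 183 controls were left out. Of the remaining 18769, 13646 have 1 gene symbol, 402 several and 4721 none in the platform annotation; RefSeq's gene table (Release 6 plus ISO1 MT) held the Entrez identifiers of 13543, with 0 symbols to update. The probe set with the highest mean over 12 arrays stood for a gene. All tested probe sets entered a limma fit (version 3.58.1, R 4.3.3; lmFit, contrasts.fit, eBayes with a variance trend; 1 mean per group, 8 residual degrees of freedom), and the procedure was tested on simulated data. Every member is named; of each other pathway list, up to 4 called genes per knockdown comparison by adjusted p are named, or 2 by p where none was called. Fat body and hemocyte markers are named where called, other marker lists counted. The members and lists were chosen with earlier results of these data known. Same-numbered arrays of the genotypes within a stage did not deviate together (r = -0.09 to 0.02, beside -0.07 to 0.05 for other pairs), so numbers were not used to pair arrays. Such values do not show whether arrays shared a batch. Columns not tied to a sample numbered 0. Alternatives were other centring or quantile normalization, other filters, a floor at the 40th percentile, no variance trend, a replicate block, the mean of a gene's probe sets, 1 stage's arrays alone and leaving out each array. Gene positions on Release 6 plus ISO1 MT served only to name neighbouring genes, since no source used here names the array's genome build, and no sequence was used.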

Additional observations from a re-analysis of the deposited data

Results flagged for a closer look

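For 10 genes the knockdown effect differed between adults and larvae in the test of the difference itself (limma adjusted p under 0.05, adult minus larval log2 change, n = 3 arrays per group). The difference was 2.69 for BomS2 and 3.00 for BomBc2, both effectors that fell in larvae. With low values raised to the 40th percentile, the difference for BomBc2 was 0.04 (limma adjusted p = 0.912). Among the recognition proteins the difference was -1.11 for PGRP-LA, 0.49 for PGRP-LE and -0.59 for GNBP3. Among the signalling genes it was 1.04 for Dif, 0.42 for cact, 0.41 for spz, 0.39 for key and 0.31 for tub. The call of Dif was lost under 12 of 20 alternatives. PGRP-LA and PGRP-LE had adult and larval changes of opposite sign, of which the larval ones were called. Dif (0.76 in adults and -0.27 in larvae) and key (0.22 and -0.18) did too, and of these the adult ones were called. For cact the probe set used here was called in opposite directions at the stages, and the mean of both probe sets gave -0.05 (adjusted p = 0.814).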

How the results depend on the processing

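The count of members called in adults was 9 and became 5 with no filter on low values, 15 with the adult arrays alone, whose smaller spread is then not pooled with the larval arrays, and 4 to 9 with 1 array left out. With 1 array left out, the larval count of 10 ranged from 7 to 11, the stage-difference count of 10 from 7 to 12, the wild-type adult to larva count of 19 from 18 to 20 and that in the knockdown, 22, from 21 to 23. Every other alternative kept these counts within 1.5 times. Over all tested probe sets, adult calls numbered 3717 and were 6190 with the adult arrays alone and 2484 without replicate 2 of adult knockdown, and calls of the stage difference numbered 2665 and were 4669 with centring on array medians. Replicate numbers were not used to pair arrays in the main fit. With a replicate block the counts were 8, 8, 9, 19 and 22. Drs (adjusted p = 0.0513) and Rel (0.0504) in larvae, PGRP-SB1 in adults (0.0668) and the stage difference of Dif (0.0551) then lost their calls.

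Directions turned as follows where a called value was involved (log2 changes); among uncalled members the sign also changed in 11 values in adults, 21 in larvae, 34 for the stage difference, and 22 and 8 for adult against larva in wild type and knockdown. With the mean of a gene's probe sets, cact was -0.090 in adults and -0.050 for the stage difference, and dl was -0.035 and -0.26 for adult against larva in wild type and knockdown. The stage difference of Tl was 0.34 with arrays centred on their medians, and that of Def -1.08 with low values raised to the 40th percentile. For wild-type adult against larva, centring on array medians gave PGRP-LA -0.22, PGRP-LE -0.65, Rel -0.55, Dif -0.60, spz -0.27 and Myd88 -0.37. Centring on the tested probe sets, an alternative chosen after seeing the data, gave PGRP-LA -0.31, PGRP-LE -0.74, Rel -0.63, Dif -0.68, spz -0.36, imd -0.47 and Myd88 -0.46, and quantile normalization gave PGRP-LA -0.32, PGRP-LE -0.32, spz -0.10, imd -0.50 and Myd88 -0.43. In the knockdown, centring on array medians gave Myd88 -0.070, centring on the tested probe sets PGRP-LE -0.14, imd -0.60 and Myd88 -0.41, and quantile normalization imd -0.42 and Myd88 -0.41. These centrings remove different overall shifts between stages; the cause of the other changes was not tested. Values near the 40th percentile carry little signal over background, which limits BomBc2, edin, Def and AttD in the groups where they were low.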
